A study of Mus musculus with 27 samples.

Results

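The genes described here are 34 members of the fatty acid uptake and oxidation pathway, followed in infarcted and remote heart muscle of mice with and without chronic kidney disease (CKD). Members were the rows of the deposited read-count table whose gene symbol was on a list of 34 symbols, out of 27304 genes in the table. All 34 were found, and all 34 passed the filter on low counts in each of the 5 comparisons. Bulk RNA sequencing was done on heart tissue of 14 male ApoE-/- mice on a C57BL/6J background, taken 7 days after a myocardial infarction (MI). ApoE-/- mice lack apolipoprotein E, which clears lipoproteins from blood, and every animal, controls included, carried this deletion and ate a western type diet for 4 weeks first.

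The 4 groups were infarct tissue of CKD mice (7 libraries), infarct tissue of control mice (6 libraries), remote tissue of CKD mice (8 libraries) and remote tissue of control mice (6 libraries). CKD mice received adenine, which injures the kidney tubules, in the western diet at 0.3% for 10 days and then at 0.15% for 11 days, of which 4 lay before the MI and 7 after it. Control mice stayed on western diet without adenine. Of the 14 mice, 13 gave both an infarct and a remote library, so the infarct and remote groups of a diet share animals. For mouse 9179 the labels of the remote library disagree: the title gives CKD and the treatment field gives control. It was placed with CKD, where its infarct library also is.

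Heart muscle normally takes most of its energy from long-chain fatty acids. These enter through membrane transporters, are bound by a cytosolic carrier, joined to coenzyme A, passed into mitochondria as carnitine esters and shortened there by repeated rounds of dehydrogenation, hydration, a further oxidation and thiolysis. The electrons of the dehydrogenation step reach the respiratory chain through the electron transfer flavoprotein, and the nuclear receptor PPAR alpha with its coactivator PGC-1 alpha drives transcription of many of these genes.

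Library totals ran from 14255456 to 42566498 counts. Summed over the 34 members, the scaled CPM defined below was 10460 ± 5230 in CKD infarct (SD, n = 7) and 4036 ± 1874 in control infarct (n = 6). It was 19539 ± 1402 in CKD remote (n = 8) and 18871 ± 5836 in control remote (n = 6). These sums are scaled levels and not raw shares of counts. Apoe, the deleted gene, was at 9.85 to 34.03 CPM over the 27 libraries, with no wild-type library analysed here. Levels below are CPM, counts scaled to the library total and by TMM factors, so they compare one gene across libraries and not different genes. There were 4 libraries that stood apart from their groups. In the infarct library of CKD mouse 9179, 26 of 34 members lay within the range of the CKD remote libraries, and the collagen gene Col1a1 was at 80.7 CPM, below every CKD remote library. In the infarct library of CKD mouse 9172, 14 of 34 lay within that range and 20 below it. Its Col1a1 was at 1651 CPM, above every CKD remote library. The remote library of control mouse 9180 was the lowest of its group for 34 of 34 members, with Col1a1 at 3864 CPM. The infarct library of control mouse 9171 was the lowest of its group for 32 of 34 members. Results that rest on these libraries are given with and without them. In bulk tissue, fewer cells of a type and less RNA per cell cannot be told apart.

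**Figure D1:**
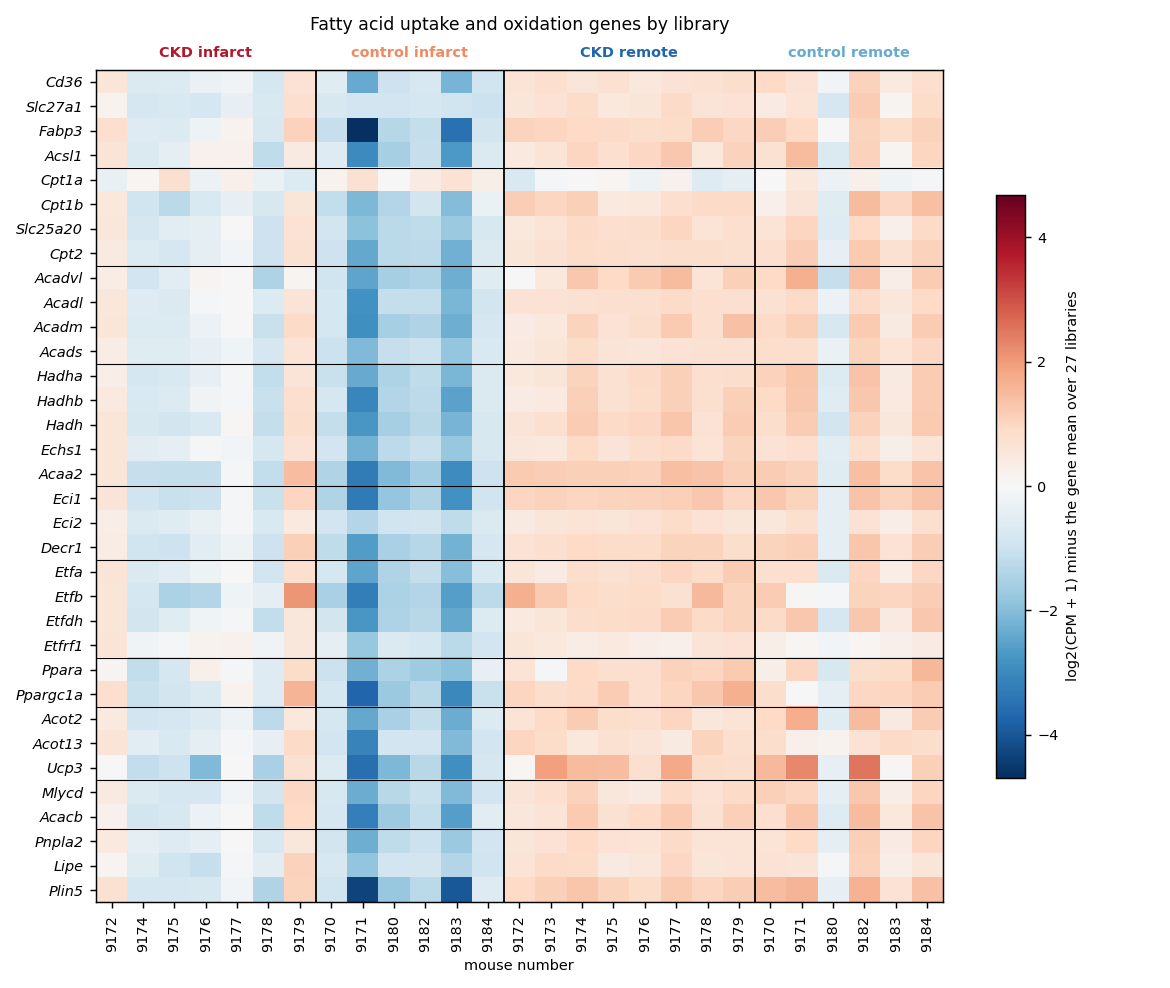
Each cell is log2(CPM + 1) of 1 member (row) in 1 library (column) minus that gene's mean over the 27 libraries; red is above the mean and blue below it, columns are grouped as CKD infarct, control infarct, CKD remote and control remote, and thin lines separate the roles. Control infarct libraries 9171 and 9183 are the darkest blue, CKD infarct libraries 9172 and 9179 are mostly red like remote tissue, remote library 9180 is pale or blue, and Cpt1a runs against the other rows.

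Divided by exon length, the members spanned a wide range of levels in control remote muscle. Fabp3, the cytosolic fatty acid carrier of heart and skeletal muscle, was first at a median of 6386 CPM per kilobase, and Hadhb, a trifunctional protein subunit, followed at 863 CPM per kilobase. Acaa2, the medium-chain thiolase, came next at 827 CPM per kilobase, which differed from Hadhb by less than the spread between the 6 libraries. Of the carnitine palmitoyltransferases of the outer membrane, Cpt1a, the isoform of liver and many other tissues, ranked 30 of 34 at 14.9 CPM per kilobase and Cpt1b, the muscle isoform, ranked 34 at 3.15 CPM per kilobase. The Cpt1b count is uncertain: a read-through gene, Gm44502, shares 81.4% of its exon bases on the same strand and is listed with 0 counts in all 27 libraries, so reads that fit both could not be placed from the table. Exon lengths came from an annotation of an older build than the one used for counting.

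The promoters of the members were searched for short sequences known to bind the factors that regulate this pathway, because most members varied together between libraries. RefSeq start sites (GRCm38.p6) matched 30 of the 34 members, each with 250 bases before and 50 after the start. The core element bound by estrogen-related receptors, AAGGTCA on either strand, lay in 2 of 30 members, Acadm and Acacb, and in 5.38% of 27025 genes. The longer element TCAAGGTCA, which contains that core, lay in 0 of 30 members and 0.47% of all genes. The direct repeat of PPAR and RXR dimers, AGGTCA repeated after 1 base of any kind and so overlapping the core in part, lay in 0 of 30 members and 0.0481% of all genes. The palindromic element of nuclear respiratory factor NRF1, whose letters are the capitals in Etfdh and Ppara, lay in 2 of 30 members, Etfdh and Ppara, and in 1.07% of all genes. A match describes letters only, and windows without one say nothing about binding elsewhere. The 3 promoters with a match before the start are shown 5′ to 3′ in the direction of the gene, 250 bases each, with the matched letters in capitals. In Acadm, the medium-chain acyl-CoA dehydrogenase (chr3:153944644-153944893, minus strand), the capitals are the core on the opposite strand, at the upstream end of the window. In Etfdh, the oxidoreductase that passes electrons to ubiquinone (chr3:79628768-79629017, minus strand), they are the NRF1 element at -128. In Ppara, the gene of PPAR alpha (chr15:85735526-85735775, plus strand), they are the NRF1 element at -31.
Acadm: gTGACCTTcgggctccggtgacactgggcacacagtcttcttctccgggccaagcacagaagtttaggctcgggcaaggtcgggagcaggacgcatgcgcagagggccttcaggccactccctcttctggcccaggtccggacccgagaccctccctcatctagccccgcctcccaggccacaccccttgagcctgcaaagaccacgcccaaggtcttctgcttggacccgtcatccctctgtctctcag
Etfdh: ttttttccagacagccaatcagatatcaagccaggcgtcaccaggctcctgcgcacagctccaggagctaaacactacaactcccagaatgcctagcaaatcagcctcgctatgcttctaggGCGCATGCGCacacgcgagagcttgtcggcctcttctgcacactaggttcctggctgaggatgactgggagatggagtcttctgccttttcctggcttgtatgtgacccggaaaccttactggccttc
Ppara: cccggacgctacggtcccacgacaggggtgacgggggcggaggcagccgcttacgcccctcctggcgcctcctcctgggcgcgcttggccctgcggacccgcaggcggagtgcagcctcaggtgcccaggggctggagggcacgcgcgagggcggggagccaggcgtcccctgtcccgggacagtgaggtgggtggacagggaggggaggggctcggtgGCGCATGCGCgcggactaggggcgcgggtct

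In the infarct, fatty acid genes were higher in CKD mice than in control mice. Of the 34 members, 25 passed the test as higher in CKD infarct and 0 as lower, where 13.1% of the 14358 genes tested were called higher, 7.14% lower and 20.3% in either direction (edgeR's quasi-likelihood test, Benjamini-Hochberg adjusted p under 0.05). The median log2 fold change was 1.22 over the members and -0.02 over all genes tested. Fold changes of 33 members were positive, from 0.62 for Slc27a1 to 2.04 for Etfb, and that of Cpt1a was negative. The groups did not overlap for 5 members, Fabp3, Acadl, Etfrf1, Acot13 and Pnpla2, each higher in CKD, against 5.24% of all genes.

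**Figure D2:**
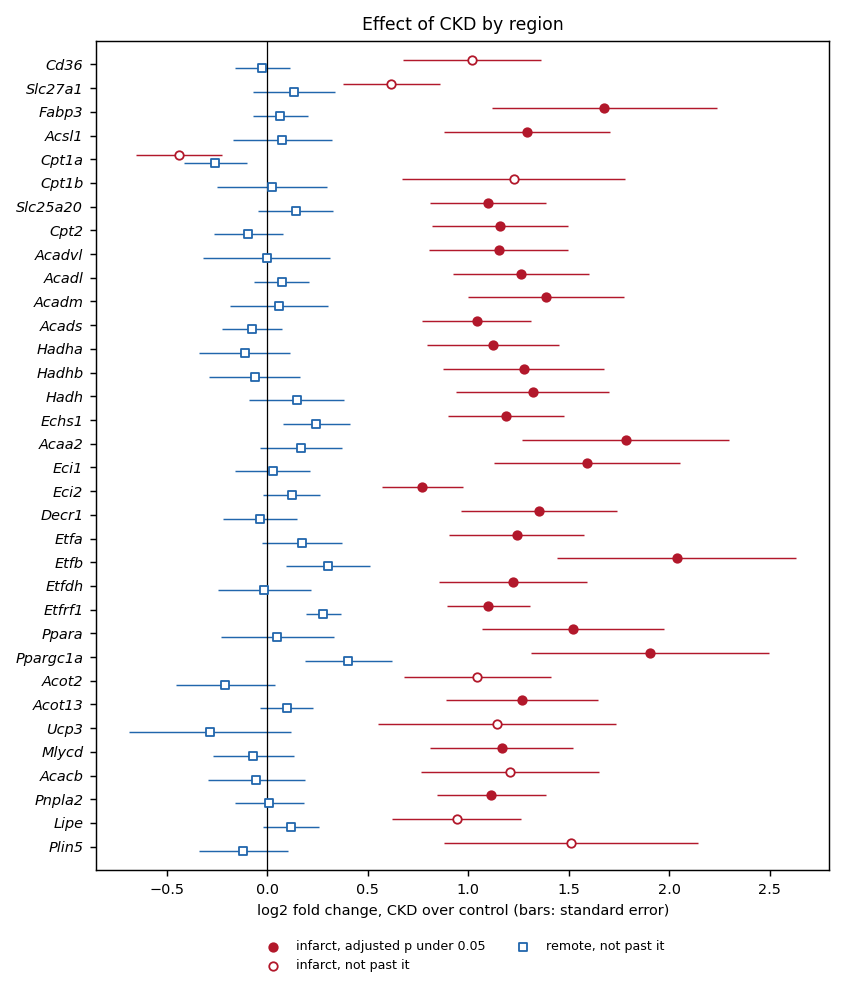
Each point is the log2 fold change of CKD over control for 1 member, in infarct (red circles) and remote tissue (blue squares), with bars of 1 standard error; filled points passed an adjusted p of 0.05. Infarct points lie between 0.62 and 2.04 except Cpt1a at -0.44, and remote points lie between -0.28 and 0.40 with none filled.

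Among the genes of uptake and activation, 2 of 4 were called. Fabp3 had a lowest, median and highest level of 1575, 2217 and 5523 CPM in CKD infarct, against 101, 1123 and 1432 CPM in control infarct. Every CKD library lay above every control library. The log2 fold change was 1.68 ± 0.56 (SE; n = 7 and 6; adjusted p = 0.0490). Acsl1, the main acyl-CoA synthetase of heart, had 151, 404 and 526 CPM in CKD infarct, against 43.2, 141 and 231 CPM in control infarct, and rose by 1.29 ± 0.41 on the log2 scale (adjusted p = 0.0437), with overlapping groups. Cd36, the membrane fatty acid translocase, had 366, 529 and 1043 CPM in CKD infarct, against 126, 338 and 443 CPM in control infarct, and narrowly missed the threshold at 1.02 ± 0.34 (adjusted p = 0.0513). Slc27a1, a fatty acid transport protein, was at 100.3, 109 and 306 CPM in CKD infarct, against 86.6, 94.2 and 105 CPM in control infarct, at 0.62 ± 0.24 (adjusted p = 0.0782).

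The carnitine shuttle split. Slc25a20, the carnitine-acylcarnitine translocase of the inner membrane, had 75.8, 109.9 and 236 CPM in CKD infarct, against 37.9, 63.2 and 87.5 CPM in control infarct, and rose by 1.10 ± 0.29 on the log2 scale (adjusted p = 0.0345). Cpt2, which releases the acyl group from carnitine inside the mitochondrion, had 67.3, 97.8 and 219.8 CPM in CKD infarct, against 24.3, 55.8 and 83.3 CPM in control infarct, and rose by 1.16 ± 0.34 (adjusted p = 0.0366). The ranges of both genes overlapped between the groups. Cpt1a had 41.7, 54.2 and 112 CPM in CKD infarct, against 65.6, 83.3 and 109 CPM in control infarct, a log2 fold change of -0.44 ± 0.21 (adjusted p = 0.139). Cpt1b had 1.38, 2.48 and 7.62 CPM in CKD infarct, against 0.324, 1.41 and 3.62 CPM in control infarct, at 1.23 ± 0.56 (adjusted p = 0.116).

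All 4 acyl-CoA dehydrogenases, which open each round of oxidation and differ in the chain length they accept, were higher in CKD infarct. Acadl, the long-chain enzyme, had 391, 599.7 and 947 CPM in CKD infarct, against 86.7, 286 and 346 CPM in control infarct, without overlap, and rose by 1.26 ± 0.34 on the log2 scale (adjusted p = 0.0345). Acads, the short-chain enzyme, had 85.3, 114 and 233 CPM in CKD infarct, against 34.6, 71.1 and 90.4 CPM in control infarct, and rose by 1.04 ± 0.27 (adjusted p = 0.0345). Acads overlapped between the groups at its lowest CKD and highest control libraries. Acadm and Acadvl, the very-long-chain enzyme, rose by 1.39 ± 0.39 and 1.15 ± 0.35. Acadvl shares 42.9% of its exon bases with Dvl2 on the opposite strand, and the labels name no strand-specific counting, so reads of the shared stretch cannot be told apart.

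All 5 enzymes of the later steps were higher as well. Echs1, the short-chain enoyl-CoA hydratase, had 131, 211 and 367 CPM in CKD infarct, against 48.3, 105 and 136 CPM in control infarct, and rose by 1.19 ± 0.29 on the log2 scale (adjusted p = 0.0345). Hadh, the short-chain hydroxyacyl-CoA dehydrogenase, had 144, 194 and 560.4 CPM in CKD infarct, against 47.6, 117 and 188 CPM in control infarct, and rose by 1.32 ± 0.38 (adjusted p = 0.0362). Groups overlapped for both. The trifunctional protein subunits Hadha and Hadhb rose by 1.12 ± 0.33 and 1.28 ± 0.40, and Acaa2 by 1.78 ± 0.52. Acaa2 showed the widest spread of these 5 in CKD infarct, with a median of 271 CPM and a highest library, that of mouse 9179, at 1546 CPM.

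Enzymes that handle unsaturated bonds were called in 3 of 3 cases. Eci2, an enoyl-CoA isomerase found in mitochondria and peroxisomes, had 60.8, 78.0 and 136 CPM in CKD infarct, against 38.4, 52.2 and 62.7 CPM in control infarct, and rose by 0.77 ± 0.20 on the log2 scale (adjusted p = 0.0345). Decr1, the mitochondrial dienoyl-CoA reductase, had 136, 185 and 577 CPM in CKD infarct, against 42.4, 98.3 and 153 CPM in control infarct, and rose by 1.35 ± 0.39 (adjusted p = 0.0362). Both overlapped between groups, and Eci1, the mitochondrial isomerase, rose by 1.59 ± 0.46.

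The electron transfer flavoprotein group was called in 4 of 4 cases. Etfrf1, a small regulator that binds the flavoprotein, had 34.7, 43.95 and 59.0 CPM in CKD infarct, against 10.6, 20.95 and 28.5 CPM in control infarct, with no overlap. Its log2 fold change of 1.10 ± 0.21 had the smallest unadjusted p of the members, 0.000118 (adjusted p = 0.0345, edgeR). Etfa, the alpha subunit, had 179.5, 283 and 566 CPM in CKD infarct, against 58.9, 139.7 and 205 CPM in control infarct, and rose by 1.24 ± 0.34. Etfdh rose by 1.22 ± 0.37. Etfb, the beta subunit, rose by 2.04 ± 0.59 with 22.9, 48.1 and 283 CPM in CKD infarct, against 6.04, 22.6 and 27.8 CPM in control infarct. The highest Etfb value was again that of mouse 9179, with the next CKD library at 98.8 CPM. Another gene, Gm45233, shares 53.0% of the exon bases of Etfb on the same strand and was not used here.

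Both regulators were called. Ppargc1a, the gene of PGC-1 alpha, had 13.7, 19.1 and 91.1 CPM in CKD infarct, against 1.33, 9.70 and 16.3 CPM in control infarct, and rose by 1.90 ± 0.59 on the log2 scale (adjusted p = 0.0407). Ppara had 3.01, 7.55 and 15.4 CPM in CKD infarct, against 0.884, 2.02 and 5.78 CPM in control infarct, and rose by 1.52 ± 0.45 (adjusted p = 0.0376). For each gene some CKD libraries lay inside the control range.

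The remaining members bear on the supply and overflow of acyl groups, and 3 of 8 were called. Acot13, a mitochondria-associated acyl-CoA thioesterase, had 91.5, 116 and 282 CPM in CKD infarct, against 16.5, 80.4 and 81.1 CPM in control infarct, without overlap, and rose by 1.27 ± 0.38 on the log2 scale. Pnpla2, the triglyceride lipase of lipid droplets, had 155, 195 and 376 CPM in CKD infarct, against 52.0, 121 and 141 CPM in control infarct, without overlap, and rose by 1.12 ± 0.27. Mlycd, which removes malonyl-CoA and so relieves its block on the carnitine shuttle, rose by 1.17 ± 0.36. Acacb, which makes malonyl-CoA at the mitochondrial surface, was at 1.21 ± 0.44 with an adjusted p of 0.0638. Lipe, the hormone-sensitive lipase, was at 0.94 ± 0.32 (adjusted p = 0.0527), Plin5, the droplet protein that tethers droplets to mitochondria, at 1.51 ± 0.63 (0.0932), Acot2, a mitochondrial thioesterase, at 1.04 ± 0.36 (0.0561) and Ucp3, a muscle uncoupling protein, at 1.14 ± 0.59 (0.162). Acot2 has a near-identical neighbour, Acot1, between which the authors' counting could have split reads.

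**Figure D3:**
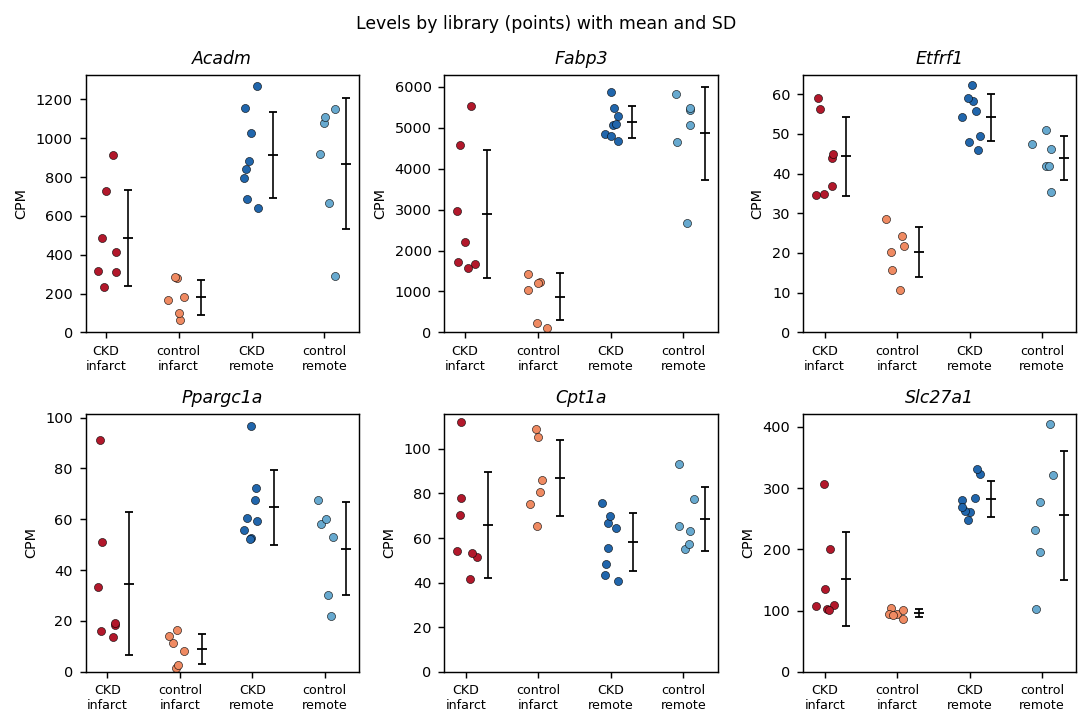
Each panel gives the CPM of 1 member, with 1 point per library in the order CKD infarct (n = 7), control infarct (n = 6), CKD remote (n = 8) and control remote (n = 6), and a bar for the mean and SD. Fabp3 and Etfrf1 show no overlap between CKD and control infarct, Acadm and Ppargc1a overlap, Slc27a1 is flat in control infarct at 95.4 ± 6.37 CPM, and Cpt1a is the panel where control infarct has the highest mean, 87.0 ± 17.1 CPM.

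The calls in the infarct depended on single libraries. Leaving out 1 library at a time gave between 0 and 30 called members, where 0 to 32.6% of genes were called. In every fit 33 members were positive, and medians ran from 1.04 to 1.38. The 30, in the fit without CKD mouse 9175, included Cpt1a, called lower in CKD at -0.62 (adjusted p = 0.0237, edgeR). No gene at all passed, and so no member, in 5 of these 13 fits, namely those without CKD mouse 9172 or 9177 or without control mouse 9171, 9182 or 9183. Over the 13 fits 29 to 33 members had an unadjusted edgeR p under 0.05. Genes under it ran from 4476 of 14397, without control mouse 9171, to 6840 of 14250, without CKD mouse 9175. Without CKD mouse 9179 the number of members called was 8, where 11.5% of 14327 genes were called. Without control mouse 9180 it was 9, where 13.2% of 14413 genes were called. Without the infarct libraries of both CKD mice 9172 and 9179, 0 of 14515 genes passed and so no member. The members' median was 0.81 in that fit, and 24 members and 4064 of 14515 genes had an unadjusted p under 0.05 from edgeR. With control library 9171 left out as well, again 0 genes passed, and the members' median was 0.63 with 33 positive. There 23 members and 3178 of 14358 genes had an unadjusted edgeR p under 0.05.

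Levels of contractile genes moved with the same comparison. The sarcomere score, the mean log2(CPM + 1) of 12 contractile genes per library, was 11.65 ± 0.64 in CKD infarct (SD, n = 7) and 9.96 ± 1.23 in control infarct (n = 6). Of the 12 contractile genes, 7 were called higher in CKD infarct and 0 lower, where 13.1% of all genes were called higher. The median log2 fold change of the 12 was 1.42. Their summed level ran from 30143 to 119511 CPM in CKD infarct and from 4662 to 31834 CPM in control infarct. Of 7 fibroblast markers, 0 were called, but all 7 had negative log2 fold changes. Their median was -0.98, and 3 had an unadjusted p under 0.05 from edgeR. The sum of these markers ran from 830.3 to 22879 CPM in CKD infarct and from 18342 to 37691 CPM in control infarct. Of 7 macrophage markers, 0 were called between the diets, and no contractile, fibroblast or macrophage marker was at 0 in every library of a group. With the sarcomere score as a covariate, edgeR called 0 of 14358 genes and so no member. At an unadjusted p under 0.05 that fit had 534 genes, 1 of them a member, and the members' median log2 fold change was 0.21.

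**Figure D4:**
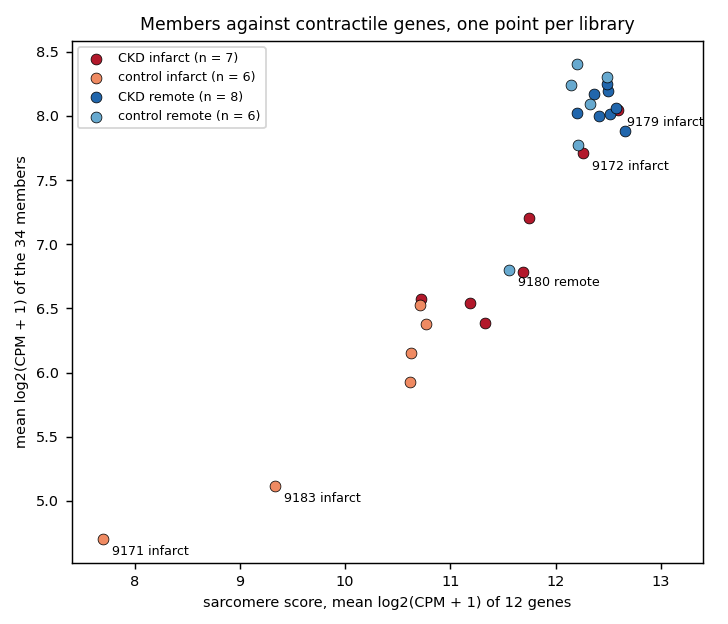
Each point is 1 of 27 libraries, with the sarcomere score (mean log2(CPM + 1) of 12 contractile genes) on the x axis and the mean log2(CPM + 1) of the 34 members on the y axis. Infarct libraries of mice 9172 and 9179 lie among the remote ones, remote library 9180 lies among the CKD infarct ones, and control infarct library 9171 is lowest on both axes at a score of 7.70.

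Each member was also set against the contractile genes of its own library, as log2(CPM + 1) minus the sarcomere score. On this scale 30 of 34 members were lower in CKD infarct than in control infarct, with a median difference of -0.44. Over all genes the median was -1.68, and 94.9% of them passed the exact two-sided permutation test over libraries after adjustment. Among the members 10 passed, all lower in CKD. The largest difference was that of Cpt1a, at -5.65 ± 1.06 in CKD infarct and -3.53 ± 1.47 in control infarct, a difference of -2.13 (exact permutation p = 0.00583, adjusted p = 0.00814). Slc27a1 followed at -1.14, Eci2 at -0.93, Lipe at -0.85 and Cpt1b at -0.81, sizes that rest in part on control library 9171. Fabp3 had the most positive difference, 0.39, and did not pass (exact permutation p = 0.0833, adjusted p = 0.0864). Cpt1a was the only member with a difference below the median of all genes. Leaving out 1 library at a time left 6 to 17 members called, where 12770 to 13740 of 14358 genes were called. Control infarct library 9171, with the lowest score, 7.70, had the highest mean difference from the score, -2.998, where the other 12 infarct libraries ran from -4.95 to -4.14. Without it the median was -0.19 over members and -1.23 over all genes, and 6 members and 12770 of 14358 genes passed. Cpt1a was then at -1.61, Slc27a1 at -0.70, Eci2 at -0.56, Lipe at -0.55 and Cpt1b at -0.52, all 5 still called.

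In remote muscle no member passed the test between CKD and control mice. Of 34 members, 0 were called in either direction, where 0.0216% of 13902 genes were called, 3 genes, each lower in CKD. At an unadjusted p under 0.05 from edgeR the count was 1 member and 1626 of 13902 genes. DESeq2 called 0 members and 0.698% of genes, and limma-voom with sample weights 0 members and 0.036%. The members' median log2 fold change was -0.13 by limma-voom, with 6 positive. With the sarcomere score as a covariate in edgeR it was -0.25, with 3 positive and 0 genes called. In the main edgeR fit the median was 0.04 over the members and 0.00 over all genes. Members ran from -0.28 for Ucp3 to 0.40 for Ppargc1a in that fit. Etfrf1 had the smallest p, with 45.8, 55.0 and 62.3 CPM in CKD remote, against 35.3, 43.97 and 51.0 CPM in control remote, a log2 fold change of 0.28 ± 0.09 (adjusted p = 0.288). Ppargc1a had 52.0, 60.0 and 96.7 CPM in CKD remote, against 21.9, 55.4 and 67.6 CPM in control remote, at 0.40 ± 0.22 (adjusted p = 0.477). Groups overlapped for all 34 members, where 0.165% of all genes were apart with CKD higher and 0.0935% with CKD lower.

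The precision of this comparison differed between members. For Acadl, with 989, 1045 and 1144 CPM in CKD remote against 511, 1079.9 and 1169.8 CPM in control remote, the 95% interval of the log2 fold change was -0.22 to 0.37. Fabp3 had an interval of -0.23 to 0.35, and Cd36 of -0.32 to 0.26. For Ucp3, which spread from 17.9 to 139.8 CPM among control remote libraries, it was -1.14 to 0.57. Leaving out 1 library at a time called 0 members in each of the 14 fits, and the median ran from -0.13, without control mouse 9180, to 0.11. Against the contractile genes of the same library, 31 of 34 members were lower in CKD remote, with a median of -0.17 against -0.28 over all genes, and 0 members and 0% of genes passed the exact permutation test. Without control library 9180 the order of these medians turned round, at -0.30 over the members and -0.18 over all genes. In that test 10 members and 2255 of 13902 genes had an unadjusted permutation p under 0.05. With all libraries it was 4 members and 4639 genes. Without control library 9182 the members' median was -0.096 and that of all genes -0.29. In both cases 0 members and 0 genes passed. The sarcomere score was 12.47 ± 0.14 in CKD remote (n = 8) and 12.16 ± 0.32 in control remote (n = 6).

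Within the heart, members were lower in infarct than in remote tissue under both diets. In CKD mice 29 of 34 members were called lower in infarct and 0 higher, against 20.2% of 14770 genes called lower and 45% called in either direction. The median log2 fold change was -0.90 over the members and -0.01 over all genes. Ucp3 was the lowest at -1.74 ± 0.51, with 4.83, 11.6 and 39.5 CPM in infarct against 25.1, 55.2 and 92.5 CPM in remote tissue. Eci2 had the smallest p, with 60.8, 78.0 and 136 CPM in CKD infarct, against 135, 154 and 182 CPM in CKD remote, and fell by 0.80 ± 0.18 (adjusted p = 0.00111). The groups overlapped for it, and did not for 3 members, Acadl, Acot2 and Pnpla2, against 1.07% of all genes. Not called were Fabp3, Etfb, Etfrf1, Ppargc1a and Cpt1a. With mouse as a block, which pairs the 2 regions of an animal, 31 members were called lower, the 29 and also Etfb at -1.39 (adjusted p = 0.00816) and Ppargc1a at -1.25 (adjusted p = 0.0149), where 24.2% of 14767 genes were called lower (edgeR). Fabp3 had 1575, 2217 and 5523 CPM in CKD infarct, against 4679, 5087 and 5887 CPM in CKD remote, at -0.83 ± 0.38 (adjusted p = 0.0771). Members other than Cpt1a were lower in infarct in 6 or 7 of 7 CKD mice with both libraries. Without the infarct libraries of mice 9172 and 9179, 33 members were called lower in CKD mice and the median was -1.31. In that fit 28.9% of 14933 genes were called lower.

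In control mice 33 of 34 members were called lower and 0 higher, against 33.2% of 14770 genes called lower and 63.9% called in either direction. The median log2 fold change was -2.27 over the members and -0.01 over all genes, and it again reached its lowest value, -3.22 ± 0.60, for Ucp3, with 1.12, 6.97 and 15.0 CPM in infarct against 17.9, 61.5 and 139.8 CPM in remote tissue. Infarct and remote libraries did not overlap for 25 members, each lower, against 17.1% of all genes. Every member but Cpt1a was lower in infarct in 6 of 6 control mice. Fabp3 had 101, 1123 and 1432 CPM in control infarct, against 2678, 5256 and 5838 CPM in control remote, and fell by 2.47 ± 0.45 on the log2 scale (adjusted p = 5.66e-05). Plin5 fell by 2.84 ± 0.53, Acaa2 by 2.86 ± 0.45 and Eci1 by 2.78 ± 0.40. The smallest fall among the called was that of Etfrf1, by 1.13 ± 0.17.

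**Figure D5:**
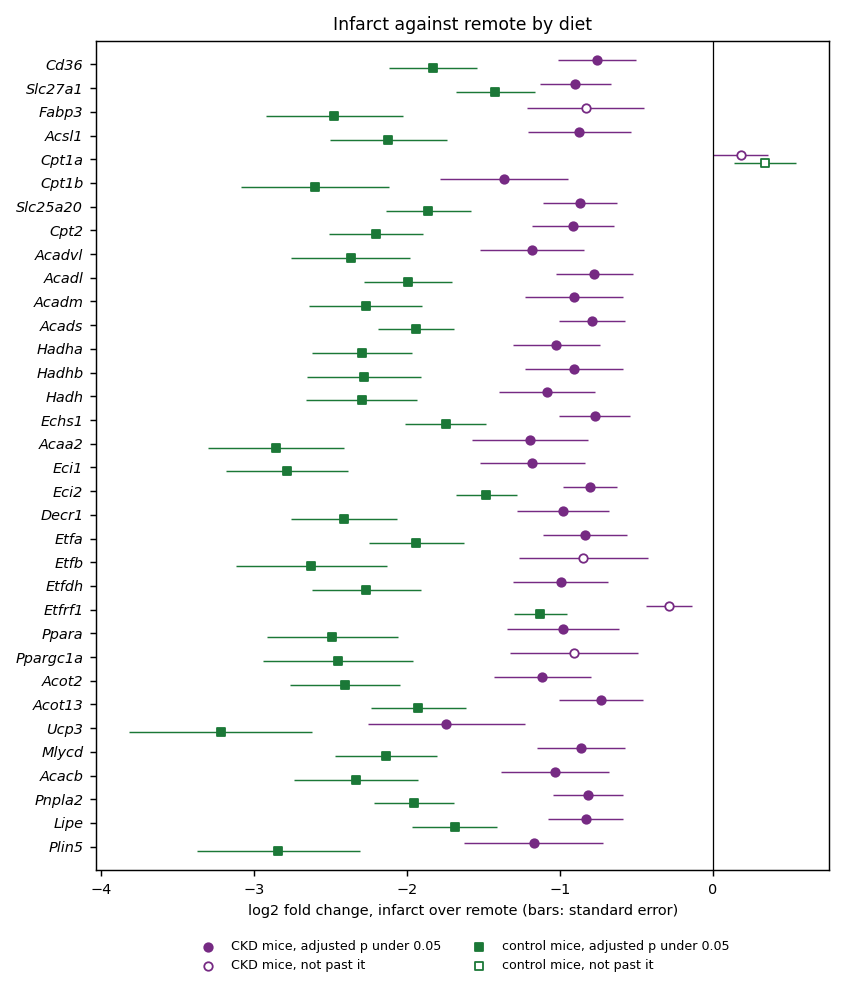
Each point is the log2 fold change of infarct over remote tissue for 1 member, in CKD mice (purple circles) and control mice (green squares), with bars of 1 standard error; filled points passed an adjusted p of 0.05. Control points lie further left, down to -3.22 for Ucp3, than CKD points, which reach -1.74, and Cpt1a is right of 0 in both.

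Cpt1a stood against the other members in both diets. It had 41.7, 54.2 and 112 CPM in CKD infarct, against 40.5, 60.0 and 75.6 CPM in CKD remote, a log2 fold change of 0.18 ± 0.18 (adjusted p = 0.409). In control mice it had 65.6, 83.3 and 109 CPM in infarct, against 54.9, 64.3 and 93.2 CPM in remote tissue, at 0.34 ± 0.20 (adjusted p = 0.138). It was lower in infarct in 2 of 7 CKD mice and 0 of 6 control mice. With mouse as a block the control value stayed at 0.34 and was called higher (adjusted p = 0.0178).

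Cell markers differed between the regions as well. The sarcomere score given above was lower in infarct under both diets, and all 12 contractile genes had negative log2 fold changes. Of the 12, 2 were called lower in CKD mice, where 20.2% of 14770 genes were. In control mice 12 were called lower, where 33.2% of genes were. All 7 fibroblast and all 7 macrophage markers were higher in infarct in both diets. Fibroblast markers summed to 830.3 to 22879 CPM in CKD infarct against 879 to 1372 CPM in CKD remote, and to 18342 to 37691 CPM in control infarct against 906 to 9314 CPM in control remote. Macrophage markers summed to 317 to 6028 CPM in CKD infarct against 300.4 to 546 CPM in CKD remote, and to 1423 to 3273 CPM in control infarct against 262 to 971 CPM in control remote. All 6 endothelial markers were lower in infarct in both diets, and the 7 white adipocyte markers summed to at most 37.4 CPM in any library. With the sarcomere score as a covariate, 12 members were called lower in CKD mice, at a median of -0.44, where 6.26% of 14770 genes were called lower. In control mice no gene passed in that fit and so no member, the members' median was -0.70, and 2057 genes had an unadjusted p under 0.05. In each diet 22 members had an unadjusted p under 0.05 from edgeR, where in CKD mice 5087 of 14770 genes did.

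The difference between the diets in how far infarct and remote tissue diverged was tested directly and passed for no member. This comparison shares its libraries with the others. The CKD effect in infarct minus that in remote tissue was positive for 33 of 34 members, with a median of 1.26 on the log2 scale against 0.06 over all genes. By edgeR 0 members were called and 0% of 14770 genes, while 30 members and 2787 genes had an unadjusted p under 0.05. The lowest adjusted p among the members was 0.165, shared by many of them, and the smallest unadjusted p was that of Etfrf1, at 0.84 ± 0.23 (unadjusted p = 0.00106 from edgeR). Fabp3 was at 1.64 ± 0.57, Etfb at 1.78 ± 0.63, Acads at 1.15 ± 0.32 and Cpt1a at -0.16 ± 0.27. DESeq2 called 19 members and 600 genes, and limma-voom 0 members and 6 genes.

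Genes next to the pathway, taken from lists chosen with earlier results of these data known, were read in the same fits. In CKD against control infarct, all 17 genes of the tricarboxylic acid cycle were called higher, with a median log2 fold change of 1.19, among them citrate synthase Cs at 1.29 ± 0.30 (adjusted p = 0.0345). All 15 nuclear-encoded genes of oxidative phosphorylation were called higher, at a median of 1.38. Of 12 genes of ketone and pyruvate oxidation 10 were higher, among them Oxct1, the enzyme that activates ketone bodies, at 1.21 ± 0.32. Of 15 glycolysis genes 12 were higher, at a median of 0.86, among them hexokinase Hk2 at 1.20 ± 0.32. For reading these counts, 13.1% of all genes tested were called higher.

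Peroxisomal oxidation genes were called higher in 5 of 14 cases, at a median of 0.38, among them the carnitine acetyltransferase Crat at 1.26 ± 0.35 and Scp2, a sterol carrier protein whose longer form is a peroxisomal thiolase, at 0.62 ± 0.17. Of 19 other acyl-CoA enzymes 7 were higher and 1 lower, the synthetase Acsl3 at -0.68 ± 0.15. Of 10 genes of lipoprotein lipid uptake 3 were higher, among them Lpl, lipoprotein lipase, at 2.18 ± 0.65 (adjusted p = 0.0377) and the receptor Vldlr, at 0.997 ± 0.33. Of 12 genes of triglyceride synthesis and droplets 5 were higher, among them G0s2, an inhibitor of Pnpla2, at 1.43 ± 0.37. Fatty acid synthesis was the list without a higher call: 0 of 8 were higher and 1 lower, the citrate lyase Acly at -0.47 ± 0.15 (adjusted p = 0.0410). Of 16 co-regulators 6 were higher, among them Esrra, estrogen-related receptor alpha, at 1.07 ± 0.28 and the mitochondrial deacetylase Sirt3 at 0.84 ± 0.22.

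In remote tissue 0 genes of these 10 lists were called between the diets. Between regions, 3 of 8 fatty acid synthesis genes were called higher in infarct in CKD mice and 1 lower, where 24.7% of all genes were called higher. In control mice 5 of 8 were called higher, where 30.7% of all genes were, among them Scd2, a desaturase, at 1.18 ± 0.24 and Fasn, fatty acid synthase, at 0.56 ± 0.15. All 17 tricarboxylic acid cycle genes were lower in infarct under both diets, with medians of -0.79 in CKD mice and -1.83 in control mice. Gpihbp1, which anchors lipoprotein lipase on the endothelium, fell by 0.95 ± 0.21 in CKD mice and by 1.73 ± 0.23 in control mice, and the transporter Slc27a6 was higher in infarct in CKD mice at 2.27 ± 0.61 (adjusted p = 0.00509), with at most 1.22 CPM in any CKD infarct library.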

How the data were processed

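RNA was sequenced from snap-frozen infarct and remote heart tissue, and the authors deposited a table of whole-number read counts per gene for 27 libraries. The submitters' processing notes name the quantifier kallisto 0.48.0 and the GRCm39 build; how its estimates became whole counts, and whether strand was used, is not given in the sources used here. The labels name a library kit without a strand-marking step. Members and gene lists were chosen with earlier results of these data known.

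Groups came from the sample titles. Counts were tested in edgeR 4.0.16 under R 4.3.3 (filterByExpr, TMM, quasi-likelihood F test, Benjamini-Hochberg over all genes tested, threshold 0.05). Diet was compared within each region, and region and the difference of effects in 1 fit of all 27 libraries. CPM values shown use TMM factors of all 27. Ratios to the sarcomere score used a pseudocount of 1 CPM and an exact permutation test over libraries, adjusted over all genes. The steps were tested on simulated data. Named were up to 2 members with the smallest p per role, members moving against their role, up to 3 called genes per list, and other members by range. A gene that this rule names is not reported here. Alternatives were DESeq2 1.42.0, limma-voom with sample weights (limma 3.58.1), and other scalings and filters. Further ones were the sarcomere score as covariate, a mouse block, and each library left out.

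Depth was 14255456 to 42566498 counts. No duplicate libraries were found: chi-square over degrees of freedom was 9.03 or more in all 79 pairs within groups. The 13 mice with both regions pair libraries by design; the same-mouse correlation of deviations from group means had a median of 0.22, from -0.13 to 0.46, against -0.02 between mice. Each library is 1 mouse and region.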

Additional observations from a re-analysis of the deposited data

Results flagged for a closer look

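Levels of the 34 members were looked at in each of the 4 groups for a library far from the rest, which gave 6 cases in 136 tests, where chance gives about 1 in 20. The infarct library of CKD mouse 9179 was highest for Etfb, at 282.7 CPM with the next library at 98.8 CPM, and for Lipe, at 93.2 CPM with the next at 47.8 CPM. The remote library of the same mouse was highest for Ppargc1a, at 96.7 CPM, with the next CKD remote library at 72.4 CPM. The remote library of control mouse 9180 was lowest for Fabp3, at 2678 CPM with the next at 4662 CPM, and for Eci1, at 141 CPM with the next at 387 CPM. The remote library of CKD mouse 9177 was highest for Acadl, at 1144 CPM, with the next at 1058 CPM.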

How the results depend on the processing

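Limits lie in the infarct. Left-out libraries gave ranges of 0 to 30 called members for CKD against control in infarct, 0 to 0 in remote tissue, 22 to 32 for infarct against remote in CKD mice, 33 to 34 in control mice, 0 to 0 for the difference of effects, and 6 to 17 for the ratio to contractile genes in infarct and 0 to 0 in remote tissue. Over the same fits genes called ran from 0 to 32.6% for CKD against control in infarct and reached 0.0434% in remote tissue. They were 33.8 to 56.9% between regions in CKD mice, 59.2 to 66.2% in control mice and at most 0.00679% for the difference. For the ratio they were 12770 to 13740 of 14358 genes in infarct and 0 to 2644 of 13902 in remote tissue. With the sarcomere score as covariate the members called were 0 for CKD against control in infarct. Between regions the members called were 12 in CKD mice and 0 in control mice. Leaving out infarct tissue of both mouse 9172 and mouse 9179, 0 members were called for CKD against control. DESeq2 called 19 members for the difference of effects, where 4.06% of genes were called. The causes were not tested. Of the single members' values for CKD against control in infarct over all alternatives, 501 kept their side of the threshold, 256 lost a call and 25 gained one. With mouse as a replicate block, 31 members were called for infarct against remote in CKD mice, where 48.8% of 14767 genes were called. In control mice 34 members were, with Cpt1a added as higher, where 66.1% of genes were called. For the difference of effects 0 members and 0% of genes passed in that fit.

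Other scalings and filters left 21 to 25 members called higher in CKD infarct, where 6.45 to 14% of genes were called higher. DESeq2 gave 31, limma-voom 17 and the fit of all 27 libraries 32, where 19.5%, 9.15% and 22.8% of genes were called higher. The median log2 fold change of all genes stayed between -0.1 and 0.1 under each scaling. With the remote library of mouse 9179 taken as control, 27 members were called lower in CKD mice and 33 in control mice. In these tests 17.9% and 34.8% of genes were called lower. Without infarct libraries 9172 and 9179 and remote library 9180, an alternative chosen after seeing the data, 33 members were called lower under each diet. For the difference 0 were called, at a median of 0.98, and 26 members and 2326 of 14888 genes had an unadjusted edgeR p under 0.05. Genes called lower in infarct were 31.2% in CKD mice and 35.3% in control mice. With infarct library 9171 left out too, also chosen after seeing the data, the member counts were 33, 33 and 0. Genes called lower in infarct were then 31.8% and 33.5%. For CKD against control 0 members were called in either region. The ratio test in infarct called 7 members with a pseudocount of 0.1 CPM and 12 without Myh6 and Ttn in the list. In these tests 13192 and 13741 of 14358 genes were called.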
